A study of Rattus norvegicus with 4 samples.

Results

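The genes described here are the aminoacyl-tRNA synthetases of the cytosol and of the mitochondria, with the scaffold proteins of the multi-synthetase complex. They were taken from the mRNA table by gene name, as the names made of an amino acid letter followed by ars, with or without a final 2, the phenylalanine enzyme subunits Farsa and Farsb, the bifunctional enzyme Eprs, and the scaffold genes Aimp1, Aimp2 and Eef1e1. This gave 37 of the 13114 gene names in the table, made of 20 cytosolic enzyme genes, 14 mitochondrial enzyme genes and 3 scaffold genes, measured over 48 transcripts. Membership was set by name and not by a measured value, although this family was chosen with earlier results of these data known. The mitochondrial enzymes for glutamate, isoleucine and methionine (Ears2, Iars2 and Mars2) had no entry under these names in the table as read, and so were not analysed here.

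Aminoacyl-tRNA synthetases join each amino acid to its transfer RNA and so supply the ribosome with charged tRNA. Most animals keep separate enzymes for the cytosol and for the mitochondria, both encoded in the nucleus, although single genes for glycine (Gars) and lysine (Kars) serve both compartments. Several cytosolic enzymes are held in one complex by the scaffold proteins Aimp1, Aimp2 and Eef1e1, and genes of several cytosolic enzymes are known targets of the transcription factor ATF4 in the amino acid and endoplasmic reticulum stress responses. Sertoli cells are the somatic cells of the seminiferous tubule that nourish the developing germ cells.

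The study set cultures treated with 4-nonylphenol (4-NP), an alkylphenol that breaks down from surfactants and can act on oestrogen signalling, against control cultures, to ask which RNAs change with the compound. The cells were primary Sertoli cell cultures prepared by enzymatic digestion of testes from Sprague-Dawley rat pups and grown in serum. There were 2 control libraries and 2 libraries of cells treated for 24 hours at a single concentration, with no genetic change in either group. Nothing in the labels says whether the libraries came from separate cultures or animals, and the p-values therefore cover only how far these libraries lay apart, which may be technical.

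The libraries held 9.657e+07 to 1.188e+08 mapped reads. Of 8012 genes averaging 1 FPKM or more (fragments per kilobase of transcript, scaled to the mapped fragments of the library), limma called 1981 higher (24.7%) and 1850 lower (23.1%) in treated cells at an adjusted p under 0.05. The median log2 change over these genes was 0.05. Of the Sertoli markers, Tf (94.2 and 86.5 FPKM), Clu (70.5 and 61.8 FPKM), Inha (16.97 and 15.7 FPKM), Cldn11 (11.02 and 11.4 FPKM) and, at lower levels, Wt1, Dhh and Kitlg were present in the controls, while Sox9, Gata4 and Fshr stood under 0.5 FPKM in every library. In treated cells 7 of 8 tested Sertoli markers fell and 1, the protease gene Ctsl, rose. The summed level of 13 Sertoli markers went from 621 and 609 to 1012 and 1034 FPKM, and that of the 12 without Ctsl from 204 and 188 to 59.8 and 50.97 FPKM. The 9 tested markers of smooth muscle or myoid cells all fell, from a sum of 7895 and 7980 FPKM over 10 genes in the controls to 660 and 648 FPKM in treated cells. The summed levels of 7 macrophage markers went from 8.02 and 9.05 to 1.38 and 1.50 FPKM, and those of 5 endothelial markers from 8.28 and 7.79 to 0.641 and 0.451 FPKM. The part of a shift in cell types in the results below was not tested, and in these bulk libraries fewer cells of a type and less RNA per cell cannot be told apart.

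Messenger RNAs of cytosolic synthetases and of the scaffold were mostly higher in treated cells. Of 20 cytosolic enzyme genes, 15 rose and none was called lower. All 3 scaffold genes rose. Of 14 mitochondrial enzyme genes, 13 were tested, 3 rose and none was called lower. That share of higher calls was near the 24.7% of all genes tested. Over the 36 tested members 21 rose and 15 were not called, against the background of 24.7% of all genes called higher. At an unadjusted p under 0.05, 23 members were higher and 0 were lower in limma. The share of all genes at that unadjusted threshold was not counted, and the 24.7% is not its background. The median log2 change, on the log2(FPKM + 1) scale, was 0.86 for the cytosolic enzymes, 0.30 for the mitochondrial enzymes and 1.02 for the scaffold, beside 0.05 for all genes tested. Both treated libraries lay above both controls for 40.1% of all genes tested, and for 19 of 20 cytosolic, 6 of 14 mitochondrial and 3 of 3 scaffold genes.

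**Figure D1:**
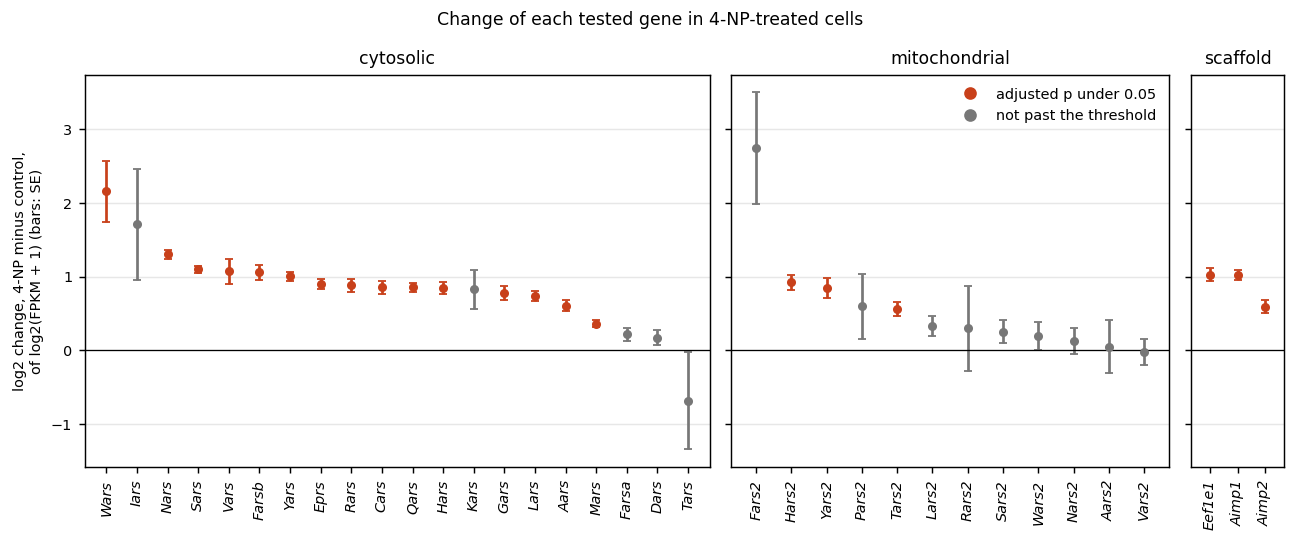
Log2 change of the tested members, treated minus control, on the log2(FPKM + 1) scale, with bars of 1 standard error from limma and calls at an adjusted p under 0.05 in red, in order of size within the cytosolic, mitochondrial and scaffold genes. Cytosolic changes ran from -0.69 (Tars) to 2.16 (Wars), and the mitochondrial changes shown from -0.03 (Vars2) to 2.74 (Fars2).

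The compartments differed in level before they differed in change. The median level over the 4 libraries was 65.9 FPKM for cytosolic enzymes, 4.58 FPKM for mitochondrial enzymes and 25.5 FPKM for scaffold genes, beside 7.37 FPKM for all genes tested. Eprs, which charges both the glutamate and the proline tRNA and is a member of the complex, was the most abundant at a mean of 272 FPKM, followed by the serine enzyme Sars at 236 FPKM. The methionine, glycine, leucine and asparagine enzymes came next at 118 (Mars), 116 (Gars), 112 (Lars) and 108 FPKM (Nars), and the libraries of these 4 genes overlapped in range. The isoleucine enzyme Iars was the lowest of the cytosolic group at 8.44 FPKM, and the lowest of all members were the mitochondrial valine enzyme Vars2 at 1.34 FPKM and the cysteine enzyme Cars2 at 0.642 FPKM. Across the 36 tested members level and log2 change went together with a Pearson r of 0.35 and a Spearman rho of 0.47. These are descriptions across genes that share the same 4 libraries.

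**Figure D2:**
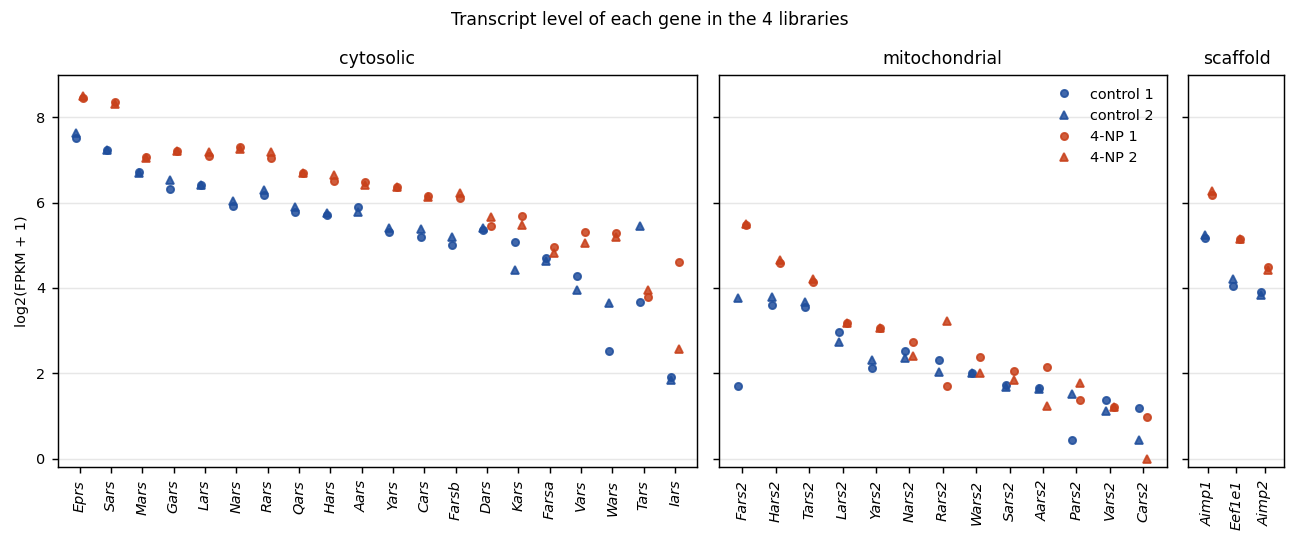
Level of the members in each of the 4 libraries as log2(FPKM + 1), with control libraries in blue, treated libraries in red and members grouped by compartment. Cytosolic enzymes centred on a median of 65.9 FPKM and mitochondrial enzymes on 4.58 FPKM.

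Among the cytosolic enzymes, the largest change on the log2(FPKM + 1) scale with all libraries was that of Wars, although the ratio of means was larger for Iars (5.28 against 4.55) and the log2 change of Iars was larger with the most abundant transcript, without the first control and without the second treated library. Wars charges the tryptophan tRNA and is also known as an interferon-induced gene. It stood at 4.78 and 11.5 FPKM without 4-NP and at 38.1 and 35.8 FPKM with it. Both treated libraries were higher, but the controls differed from each other more than 2-fold. The log2 change was 2.16 ± 0.41 (limma SE, n = 2 and 2, adjusted p = 0.0205), and it missed the threshold without either of the treated libraries (adjusted p = 0.1 without the first and 0.0995 without the second).

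Nars, the asparagine enzyme, was at 59.9 and 64.2 FPKM without 4-NP and at 157 and 151 FPKM after treatment. The groups were far apart and the replicates of each close together. The change was 2.49-fold, or 1.30 ± 0.07 on the log2 scale (limma SE, adjusted p = 0.00142). In the coordinates of the deposited table, whose genome build the sources used here do not give, the gene lies on the minus strand of chromosome 18 from 59986360 to 60002569 and its main transcript has 15 exons.

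Sars, the second most abundant member, went from 149 and 150.5 FPKM to 326 and 318 FPKM. This was the smallest adjusted p of any member, with a log2 change of 1.10 ± 0.05 (limma SE, adjusted p = 0.00119). Eprs, the most abundant, stood at 182 and 198 FPKM without 4-NP and at 346 and 362 FPKM with it. No treated library came near a control for either gene, and the change of Eprs was 1.87-fold (log2 0.90 ± 0.07, limma SE, adjusted p = 0.00268).

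The other enzymes among the highest changes were those for valine, phenylalanine, tyrosine and isoleucine. Vars, the valine enzyme, stood at 18.4 and 14.4 FPKM against 39.0 and 32.0 FPKM (log2 1.07 ± 0.17, limma SE, adjusted p = 0.0135). Its call did not hold without the second control (adjusted p = 0.052) or the first treated library (0.0653), and another gene, AABR07044408.1, overlaps it by 6302 bases on the same strand at a mean of 0.0878 and 0.192 FPKM. Yars, which charges the tyrosine tRNA, went from 38.9 and 41.2 to 81.0 and 81.8 FPKM, a 2.03-fold change (limma adjusted p = 0.00192).

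The cytosolic phenylalanine enzyme is built of 2 kinds of subunit, and their messages did not change alike in size. Farsb, the beta subunit, stood at 31.4 and 35.8 FPKM without 4-NP and at 68.1 and 73.8 FPKM in treated cells (log2 1.06 ± 0.10, limma SE, adjusted p = 0.00391). Farsa, the alpha subunit, stood at 25.0 and 24.0 FPKM against 30.3 and 27.2 FPKM (log2 0.22 ± 0.09, limma SE, adjusted p = 0.119). Both treated libraries were above both controls for each subunit, and only Farsb passed the test. The difference between the subunits was not itself tested.

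Iars, the isoleucine enzyme, was measured at 2.77 and 2.60 FPKM without 4-NP and at 23.4 and 4.94 FPKM with it. The treated replicates lay almost 5-fold apart, so the mean ratio of 5.28 came with a log2 change of 1.71 ± 0.75 and no call (limma SE, adjusted p = 0.144). Without the second treated library the adjusted p was 0.0197.

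The remaining enzymes that rose did so by 1.29-fold to 1.86-fold. Rars (arginine) stood at 70.9 and 78.0 FPKM against 132 and 145 FPKM, Cars (cysteine) at 35.7 and 40.8 against 70.6 and 69.3 FPKM, and Qars (glutamine) at 54.2 and 58.2 against 102 and 103 FPKM. Hars (histidine) stood at 51.6 and 53.2 FPKM against 90.02 and 99.9 FPKM, Gars at 78.6 and 91.8 against 146 and 146 FPKM, and Lars at 83.9 and 83.9 against 136 and 146 FPKM. In all of these the treated libraries lay above the controls by more than the replicates of a group differed. The 2 smallest changes among the called cytosolic enzymes were those of Aars (alanine, 58.4 and 54.0 against 88.2 and 83.8 FPKM, log2 0.61) and Mars (104 and 102 against 133 and 132 FPKM, log2 0.36). Gars lost its call without the second treated library (limma adjusted p = 0.0525), and Mars without either treated library (0.0588 and 0.0565). Mars shares 72 bases of the opposite strand with Ddit3, whose level went from a mean of 56.8 to 975 FPKM.

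The cytosolic enzymes with no call, beside Farsa and Iars, were those for aspartate, lysine and threonine. Dars, the aspartate enzyme, stood at 40.0 and 41.7 FPKM against 42.9 and 49.8 FPKM (log2 0.17 ± 0.10, limma SE, adjusted p = 0.228). Kars, the lysine enzyme, stood at 33.0 and 20.5 FPKM against 50.7 and 43.4 FPKM, with a log2 change of 0.83 (limma adjusted p = 0.0707, and 0.029 without the first control). Tars, the threonine enzyme, was the only member of its group whose libraries overlapped, at 11.7 and 42.9 FPKM in the controls and 12.9 and 14.5 FPKM in treated cells. Its log2 change of -0.69 ± 0.66 was not called (limma SE, adjusted p = 0.444), and it turned on 1 control library. It was -1.58 without the first control (adjusted p = 0.0202, a call) and 0.21 without the second (0.338).

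Grouping the cytosolic enzymes by assembly or by fold of the catalytic domain did not separate them clearly. Of the 8 enzyme genes of the multi-synthetase complex 5 rose, with a list median on the log2 scale of 0.84, and of the 12 outside it 10 rose, with a median of 0.93. Of 9 class I enzymes 8 rose (median 0.88) and of 10 class II enzymes 6 rose (median 0.80), leaving out Eprs, which holds a domain of each class. Counts are small and no test was made between these groups.

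The 3 scaffold genes of the complex rose together. Aimp1 went from 34.9 and 37.0 FPKM to 71.9 and 76.1 FPKM, a 2.06-fold change (log2 1.02 ± 0.07, limma SE, adjusted p = 0.00224). Eef1e1, also known as AIMP3, went from 15.4 and 17.5 FPKM to 34.7 and 34.5 FPKM (2.10-fold, limma adjusted p = 0.00385). Aimp2 changed less, from 13.99 and 13.26 to 21.6 and 20.6 FPKM (log2 0.59 ± 0.08, limma SE, adjusted p = 0.00983). Treated libraries lay above the controls for all 3 genes, and the call of Aimp2 missed the threshold narrowly without the second control (0.0506) and without the first treated library (0.0557).

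Of the 13 tested mitochondrial enzymes, those for histidine, tyrosine and threonine rose, a share near the 24.7% of all genes called higher. Hars2 stood at 11.2 and 12.9 FPKM without 4-NP and at 23.0 and 24.3 FPKM in treated cells (log2 0.92 ± 0.11, limma SE, adjusted p = 0.00625). Yars2 went from 3.34 and 3.97 to 7.29 and 7.40 FPKM (log2 0.84 ± 0.14, limma SE, adjusted p = 0.0136). Tars2 went from 10.7 and 11.7 to 16.6 and 17.4 FPKM (log2 0.56 ± 0.10, limma SE, adjusted p = 0.0153). The treated libraries of these 3 genes lay above the controls. The call of Hars2 held without each library in turn, while those of Yars2 and Tars2 were lost without the first control (0.0576 and 0.0661) or without either treated library (highest 0.0724 and 0.0779).

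The largest ratio of any member was that of Fars2, the mitochondrial phenylalanine enzyme, which is a single chain. It was measured at 2.25 and 12.7 FPKM without 4-NP and at 43.4 and 43.9 FPKM with it. The treated libraries were both above and close together, but the controls differed by more than 5-fold. The log2 change of 2.74 ± 0.76 narrowly missed the threshold (limma SE, adjusted p = 0.0516). Without the first control it was 1.71 (0.0171), without the second control 3.78 (0.0179), and without a treated library it was not called (0.171 and 0.18).

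The other mitochondrial enzymes were low and moved little or unevenly. Lars2, for leucine, stood at 6.87 and 5.64 FPKM against 8.07 and 8.05 FPKM, and Sars2, for serine, at 2.31 and 2.21 against 3.19 and 2.61 FPKM. Their treated libraries lay above the controls and neither was called (limma adjusted p = 0.132 and 0.266). Pars2, the proline enzyme, was uneven within each group at 0.356 and 1.85 FPKM against 1.58 and 2.42 FPKM (log2 0.60 ± 0.44, limma SE, adjusted p = 0.334). Rars2, for arginine, stood at 3.99 and 3.06 against 2.26 and 8.40 FPKM, and it shares 7544 bases of the opposite strand with Slc35a1 (means of 16.6 and 15.8 FPKM). The study describes its sequencing as strand-specific, and whether strand was used to assign reads is not given in the sources read here. Wars2, for tryptophan, stood at 3.05 and 2.99 against 4.22 and 3.04 FPKM. The groups overlapped for Pars2, Rars2 and Wars2, and none was called (Rars2 and Wars2 limma adjusted p = 0.702 and 0.453).

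The smallest changes in absolute size were those of Vars2, Aars2 and Nars2. Vars2 stood at 1.58 and 1.16 FPKM against 1.33 and 1.30 FPKM (log2 -0.03, limma adjusted p = 0.906). Aars2, for alanine, stood at 2.13 and 2.10 against 3.44 and 1.345 FPKM (log2 0.05, limma adjusted p = 0.921), and Nars2, for asparagine, at 4.74 and 4.16 against 5.67 and 4.33 FPKM (log2 0.13, limma adjusted p = 0.58). In each of these the groups overlapped. Cars2 was the single member under the filter, at 1.27 and 0.347 FPKM without 4-NP and at 0.952 FPKM in the first treated library, and it was listed at 0 in the second.

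Whether cytosolic enzymes changed more than mitochondrial ones depended on the quantity compared. The difference between the median log2 changes was 0.56. In single libraries, the median cytosolic level minus the median mitochondrial level, on the log2(FPKM + 1) scale, had an SD of 0.19 between replicates. That SD is a spread of levels and not an error of the 0.56. The difference in change was not tested. It was 0.15 when only genes averaging 5 FPKM or more over the 4 libraries were kept, which left 6 mitochondrial enzymes. That mean includes the treated libraries, and Yars2 (control mean 3.66 FPKM) and Iars (2.69 FPKM) reached it only through them. By control means alone, 5 mitochondrial and 19 cytosolic enzymes stood at 5 FPKM or more, and the difference was not computed for these. At a 4-library mean of 5 FPKM or more, 15 of 20 cytosolic and 3 of 6 mitochondrial enzymes were called in the fit over all genes. None of the 7 tested mitochondrial enzymes below that level was called. In a fit limited to genes at that level, 15 cytosolic and 4 mitochondrial enzymes were called higher. Of all 4918 genes in that fit, 1704 were called higher and 1158 lower, with a median log2 change of 0.173. The median standard error was 0.09 for cytosolic and 0.18 for mitochondrial enzymes, so that a change of a given size was less readily called in the latter. The summed level of cytosolic enzymes was 1133 and 1209 FPKM in the controls and 2114 and 2119 FPKM in treated cells, a 1.81-fold change. The mitochondrial sum went from 61.9 and 74.3 to 128 and 132 FPKM, a 1.91-fold change, of which Fars2 made up 43.4 and 43.9 FPKM after treatment. Cytosolic messages outnumbered mitochondrial ones per length by 18.3 and 16.3 to 1 in the controls and by 16.5 and 16 to 1 in the treated libraries.

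Within an amino acid, the cytosolic enzyme had the larger log2 change for 10 of 13 amino acids whose enzymes were both tested. The mitochondrial enzyme had it for 3 (histidine, phenylalanine and threonine). The log2(FPKM + 1) scale understates changes of low genes. Proline turned with a pseudocount of 0.1 (Pars2 1.13, Eprs 0.90) and without the second control (Pars2 1.13, Eprs 0.96). Arginine turned without the first treated library (Rars2 1.06, Rars 0.95). The ratio of cytosolic to mitochondrial FPKM was higher in both treated libraries than in both controls for 6 of 14 amino acids, lower for 3 (for phenylalanine with either cytosolic subunit), overlapping for 4, and not defined for cysteine. The ratio of Nars to Nars2 was 12.6 and 15.4 in the controls and 27.8 and 34.98 in the treated libraries. For serine it was 64.5 and 68.0 against 102 and 122, and for tryptophan 1.57 and 3.84 against 9.03 and 11.8. Phenylalanine went the other way, with Farsb to Fars2 at 13.9 and 2.83 without 4-NP and at 1.57 and 1.68 after treatment. For tyrosine the ratio was nearly level, at 11.7 and 10.4 against 11.1 and 11.1.

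**Figure D3:**
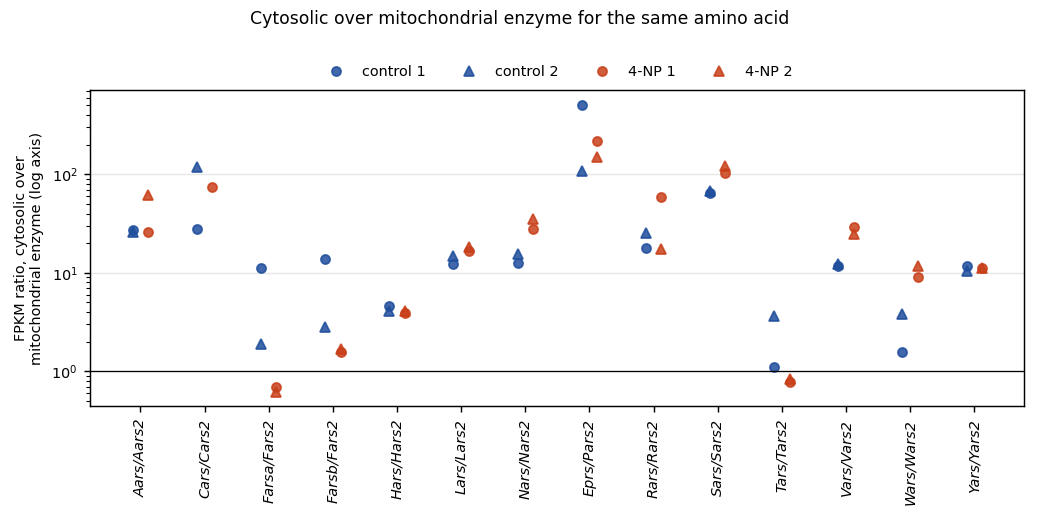
Ratio of cytosolic to mitochondrial FPKM for pairs of enzymes of the same amino acid in each library, on a log axis. Asparagine, serine, valine and tryptophan had higher ratios in both treated libraries, phenylalanine had lower ones, and tyrosine stayed between 10.4 and 11.7.

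Hars and Hars2 form a pair of a further kind, since they lie head to head on chromosome 18. In the deposited table Hars spans 29611547 to 29629087 on the minus strand and Hars2 spans 29629184 to 29638721 on the plus strand, each with 13 exons. In the RefSeq annotation of GRCr8 the start sites are 144 bases apart. Hars rose 1.81-fold and Hars2 rose 1.97-fold, and the ratio of their FPKM was 4.61 and 4.13 in the controls and 3.92 and 4.10 in the treated libraries. The treated ratios were lower than the controls, the nearest of them by less than the replicates differed. The interval between the start sites is shown because the genes share it, on the plus strand at chr18:28672712-28672856 of GRCr8, with a GC content of 55.2%.
Hars and Hars2 shared interval: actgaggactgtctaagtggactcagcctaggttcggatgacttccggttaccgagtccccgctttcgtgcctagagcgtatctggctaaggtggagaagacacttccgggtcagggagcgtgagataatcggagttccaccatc

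Promoter windows were read from RefSeq (GRCr8) for 33 of the 37 members, from 250 bases before to 50 after the start of the gene. The windows were searched on both strands for TGATGNAA, a form of the composite site through which ATF4 and C/EBP proteins are known to act, for its subset TGATGCAA, for the cAMP-response-type motif TGACGTNA, which cannot match the same letters, and for CCAAT. TGATGCAA was present in 7 of 17 cytosolic promoters, 0 of 13 mitochondrial promoters and 0 of 3 scaffold promoters, beside 0.743% of 27457 promoters in all. The wider TGATGNAA was found in the same 7, 0 and 0 promoters, beside 3.82% of all. TGACGTNA was in none of the members' windows and in 3.39% of all, and CCAAT was in 10, 4 and 2 of them and in 37.7% of all. A match is a description of the letters only and does not show that a factor binds.

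The matched stretches are shown because the 7 promoters that hold TGATGCAA were all cytosolic. Each is given in the direction of its gene, with the match in capitals, where TTGCATCA is TGATGCAA read on the other strand. Positions count from 0 at the first base of the transcript.
Aars (chr19:55908354-55908393, match from -112 to -105): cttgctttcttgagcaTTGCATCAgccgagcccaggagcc
Cars (chr1:208225329-208225368, match from 17 to 24): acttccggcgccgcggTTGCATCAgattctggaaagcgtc
Iars (chr17:15193653-15193692, match from -24 to -17): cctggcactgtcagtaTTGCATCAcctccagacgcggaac
Mars (chr7:65023747-65023786, match from -17 to -10): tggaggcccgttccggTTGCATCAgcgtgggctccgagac
Nars (chr18:60275773-60275812, match from -14 to -7): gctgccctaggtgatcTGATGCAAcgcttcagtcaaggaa
Tars (chr2:62114806-62114845, match from -27 to -20): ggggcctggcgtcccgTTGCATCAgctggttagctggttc
Yars (chr5:146820185-146820212, match from 38 to 45): gagctacgagctcagcTGATGCAAcctg

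For the 17 cytosolic enzymes with a promoter window, the changes are given by presence of the motif as a description. Dars, Gars and Rars had no window and are left out. Of the 7 enzymes with TGATGCAA 5 rose, with a list median on the log2 scale of 0.86. Of the 10 without it in the window 8 rose, with a median of 0.88. Over all genes tested, 24.7% were called higher. Whether the motif bears on the change was not tested. The 7 included Nars, which rose 2.49-fold, Mars, which rose 1.29-fold, and Tars and Iars, which were not called. Aars had a further match to the wider motif, TTTCATCA in the direction of the gene, from 9 to 16.

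The sums over transcripts hid changes within some genes. Of the 37 members 9 had several transcripts in the table and 28 had 1. In Iars the transcript ENSRNOT00000093637 stood at 2.64 and 2.49 FPKM in the controls and 0.098 and 0.079 FPKM in treated cells, while ENSRNOT00000086344 stood at 0.133 and 0.066 against 19.7 and 4.86 FPKM. The first was nearly confined to the controls and the second to the treated libraries. The assignment of reads to overlapping transcripts was made by the authors' software and its error is unknown here.

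In Tars the high second control was made of 2 transcripts in nearly equal parts. ENSRNOT00000051910 was at 21.5 FPKM in the second control and was listed at 0 in the other libraries, and ENSRNOT00000088202 stood at 11.7 and 21.4 FPKM in the controls and 12.9 and 14.5 FPKM in treated cells. In Aars the transcript ENSRNOT00000025052 was at 25.2 FPKM in the second treated library and listed at 0 elsewhere, and ENSRNOT00000082151 stood at 58.4 and 54.0 against 88.2 and 58.6 FPKM. With the most abundant transcript in place of the sum, Aars was not called (log2 0.35, limma adjusted p = 0.277) and Iars was (log2 3.33, limma adjusted p = 0.0266).

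Both transcripts of Fars2 moved alike. ENSRNOT00000021660 stood at 1.40 and 5.81 FPKM without 4-NP and at 19.6 and 20.1 FPKM in treated cells, and ENSRNOT00000080031 at 0.854 and 6.85 against 23.8 and 23.8 FPKM. The low first control was thus seen in each. In Wars 1 transcript, ENSRNOT00000050350, held most of the level, at 4.34 and 10.97 FPKM against 36.6 and 31.5 FPKM.

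**Figure D4:**
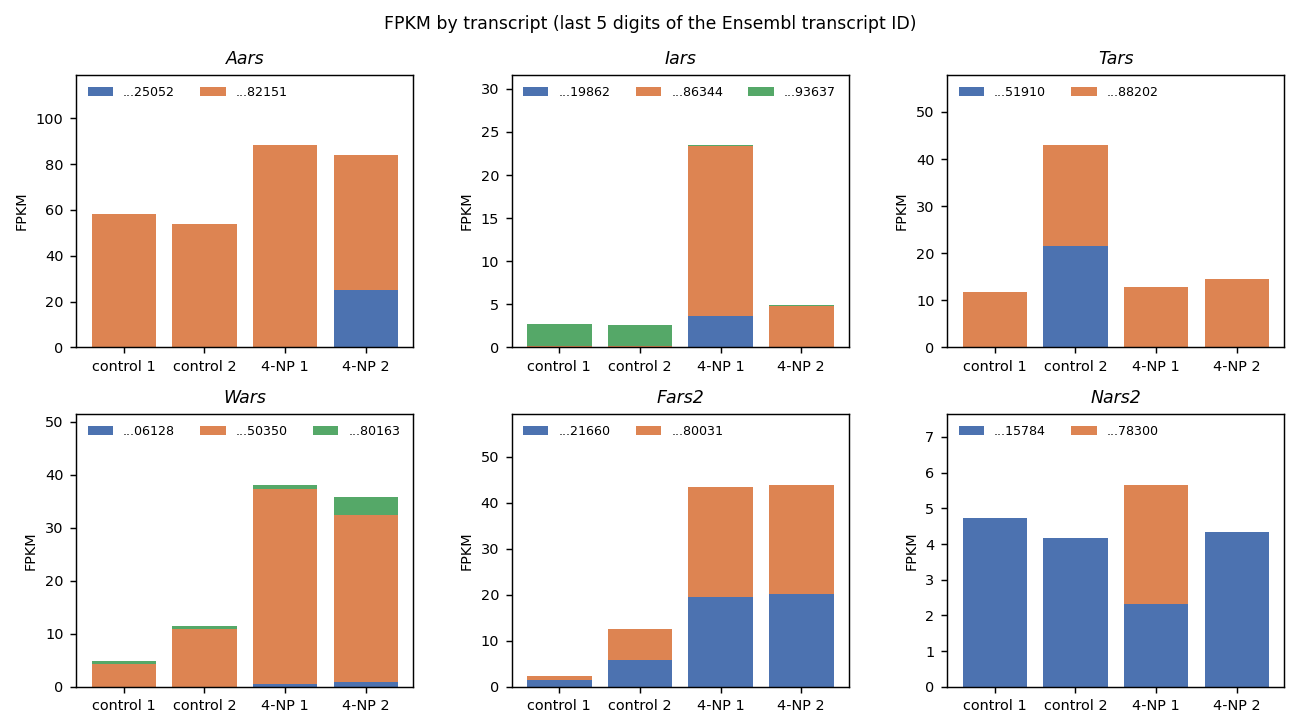
FPKM of the transcripts of Aars, Iars, Tars, Wars, Fars2 and Nars2 in each library, stacked as bars so that the height is the sum per gene. In Iars the transcript seen in the controls (2.64 and 2.49 FPKM) was below 0.1 FPKM in both treated libraries, and in Tars and Aars 1 transcript was present in a single library.

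Other genes of the pathway were followed as companion lists. Of 20 genes that work on or beside tRNA charging, 15 were tested, 6 rose (40.0%, beside 24.7% of all genes tested) and 1 fell (6.7%, beside 23.1%), with a list median on the log2 scale of 0.44. Qrsl1, a subunit of the mitochondrial glutaminyl-tRNA amidotransferase, rose from 2.54 and 2.42 to 8.99 and 9.31 FPKM (log2 1.55 ± 0.12, limma SE, adjusted p = 0.00286). Trnt1, which adds the CCA end of the tRNA, rose from 7.82 and 5.61 to 18.9 and 22.3 FPKM. Dtd2, a deacylase that clears mischarged tRNA, fell from 6.35 and 6.66 to 1.92 and 1.76 FPKM (log2 -1.40 ± 0.13, limma SE, adjusted p = 0.00416). The groups were well apart in each.

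Of 16 further genes of mitochondrial translation and tRNA processing, 15 were tested, 4 rose (26.7%, near the 24.7% of all genes tested) and 1 fell (6.7%, beside 23.1%), with a list median on the log2 scale of 0.21. Trmt10c, the methyltransferase subunit of mitochondrial RNase P, rose from 10.9 and 10.6 to 30.0 and 34.0 FPKM. Trmu, which thiolates mitochondrial tRNA, rose 2.89-fold and Tufm, the mitochondrial elongation factor Tu, rose 1.92-fold. Hsd17b10, another subunit of mitochondrial RNase P, fell from 66.3 and 73.2 to 35.7 and 36.8 FPKM (log2 -0.92 ± 0.08, limma SE, adjusted p = 0.00335). These 2 subunits of one enzyme thus changed in opposite directions, each by more than the replicates differed.

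Of 29 genes of the ATF4 and amino acid response, 27 were tested, 18 rose (66.7%, beside 24.7% of all genes tested) and 3 fell (11.1%, beside 23.1%), with a list median on the log2 scale of 0.71. The smallest p-values were those of the transcription factor Ddit3 (CHOP), from 56.5 and 57.0 to 1004 and 945 FPKM, of Atf3, from 4.03 and 3.21 to 91.0 and 90.3 FPKM, and of Ppp1r15a (GADD34), the regulatory subunit of an eIF2 alpha phosphatase, from 8.02 and 7.93 to 78.6 and 88.5 FPKM. Their folds were 17.2, 25.0 and 10.5, larger than that of any synthetase. Atf4 itself, named here after its values were seen, rose from 242 and 267 to 517 and 485 FPKM (1.97-fold, limma adjusted p = 0.00286). The members that fell were the serine synthesis enzymes Phgdh (114 and 106 to 67.6 and 67.1 FPKM, limma adjusted p = 0.00376) and Psat1 (58.6 and 70.7 to 37.9 and 44.1 FPKM, 0.027) and the lipoprotein receptor Vldlr (8.60 and 3.96 to 0.813 and 1.67 FPKM, 0.0431). Of the genes in that list, 26 had a promoter window. TGATGCAA was present in 3 of these (Chac1, Pycr1 and Slc1a4), beside 0.743% of all promoters. The wider TGATGNAA was present in 5, with Trib3 and Slc7a1 added, beside 3.82% of all.

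Of 11 genes of eIF2, its kinases and the GCN2 partners, all tested, 6 rose (54.5%, beside 24.7% of all genes tested) and 1 fell (9.1%, beside 23.1%), with a list median on the log2 scale of 1.15. Impact, an inhibitor of GCN2 activation, rose from 11.95 and 13.1 to 64.0 and 71.4 FPKM (log2 2.34 ± 0.10, limma SE, adjusted p = 0.00108). Eif2b1, a subunit of the exchange factor eIF2B, rose 3.36-fold, and Eif2s1, the alpha subunit of eIF2, rose 2.47-fold. Eif2ak4 (GCN2), the kinase that senses uncharged tRNA, fell from 3.01 and 3.16 to 1.83 and 1.44 FPKM (log2 -0.64 ± 0.16, limma SE, adjusted p = 0.0415). No companion promoter of this list, of the tRNA list or of the mitochondrial list held TGATGNAA among the 10, 15 and 13 windows read for genes in the mRNA table.

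**Figure D5:**
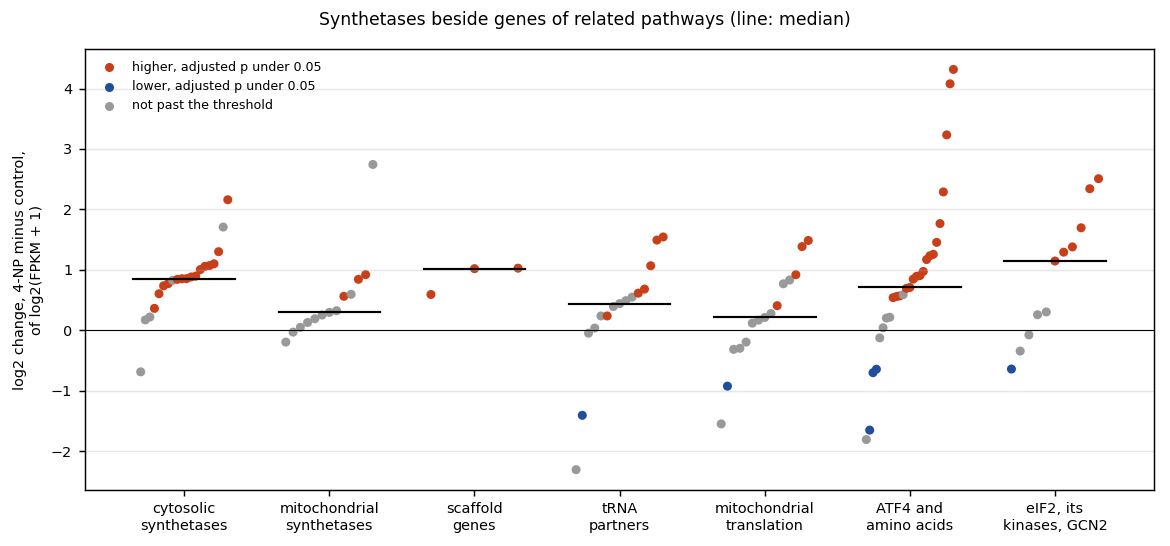
Log2 change of every tested gene of the companion lists beside the synthetases and scaffold genes, treated minus control, with the median of each list as a line. Medians were 0.86 for cytosolic and 0.30 for mitochondrial synthetases, 0.44 for the tRNA list, 0.21 for mitochondrial translation, 0.71 for the ATF4 list and 1.15 for the eIF2 list.

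The long noncoding RNA table, which lists 265 transcripts, had none within 5000 bases of a member and none named for one. Circular RNAs of these genes were not analysed here, since the circRNA table names no host gene.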

How the data were processed

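Total RNA depleted of ribosomal RNA was sequenced as 2 control and 2 4-NP-treated libraries of Sertoli cells, grouped by sample title. Each mRNA and lncRNA transcript has FPKM values as deposited by the authors. For circRNAs the authors deposited back-splice read counts and a scaled score, SRPBM, scaled to mapped reads. Dividing these counts by the score gave the mapped reads per library. HISAT2 and DESeq2 are credited to the submitters' processing notes. Their versions, the build and the assembler were not given in the sources used here. Deposited columns with the authors' fold changes, log2 ratios, p-values and q-values were not used. FPKM carries no read counts, so counting intervals were not given.

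Of 17290 mRNA rows, 1545 repeated a transcript and were dropped. FPKM of the remaining 15745 transcripts was summed per gene name. Genes averaging 1 FPKM or more entered a two-sided limma fit (version 3.58.1 under R 4.3.3, with trend and group as its only term) of log2(FPKM + 1), and p-values were adjusted over all 8012 genes by the Benjamini-Hochberg method at 0.05. Log2 changes on this scale understate the change of low genes. Folds are ratios of mean FPKM. The fit was tested on simulated data. Summing and drawing used Python 3.11.15 with pandas 2.3.3 and matplotlib 3.10.9.

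Members and lists were chosen with earlier results of these data known. Values of 1 member, which stays in the counts, sums and medians, are not reported here. Values per library were set to be given for the scaffold genes, the 8 cytosolic and 4 mitochondrial enzymes with the highest log2 change, members called lower, the 3 smallest absolute changes and members under the filter, and in each pathway list the 3 smallest p-values and calls against the main direction. The other members' values were added. Marker lists covered smooth muscle, Sertoli, germ, Leydig, macrophage and endothelial cells. Of 5 tested germ cell markers 1 rose and 4 fell, and of 4 Leydig markers 1 rose and 3 fell. The summed level of 7 germ cell markers nevertheless went from 39.45 and 25.13 to 72.35 and 97.19 FPKM. Of this Uchl1 made up 68.0 and 91.7 FPKM after treatment. That of 6 Leydig markers went from 434 and 432 to 837 and 811 FPKM, of which Star made up 310 and 305, then 813.5 and 788 FPKM. Alternatives were the pseudocount, filter, scaling, moderation, replicate block, transcript choice, threshold and leaving out each library.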

Additional observations from a re-analysis of the deposited data

How the results depend on the processing

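The 21 higher calls were unchanged with a pseudocount of 0.1, without a filter, under both scalings to library totals or median ratios, and without the trend in limma. Of these calls 14 held without each library in turn, 11 cytosolic, 1 mitochondrial (Hars2) and 2 scaffold genes. Leaving out 1 library gave 15 to 21 higher and 0 to 1 lower members and a cytosolic median of 0.8185 to 0.9046. How many of all called genes held without each library in turn was not counted. With an unadjusted limma p under 0.05 and an absolute log2 change above 1, 9 of 36 tested members were higher. At that rule 914 of all 8012 genes tested were higher and 1218 were lower. With a filter at a mean of 5 FPKM the mitochondrial median was 0.7044, the difference of medians 0.1511, and Fars2 was called (limma adjusted p = 0.0391). This filter takes the mean over all libraries, and Yars2 and Iars passed it only through their treated values. Scaling to equal summed FPKM gave a cytosolic median of 0.7730 and scaling by the median ratio 0.7949, while the median of all genes moved from 0.051 to -0.022 and -0.003. The cytosolic median without Gars and Kars, an alternative chosen after seeing the data, was 0.8699. Changes that turned direction were those of uncalled members: Aars2 (-0.0059 with equal sums), Nars2 (-0.3695 with the most abundant transcript), and, without 1 library, Tars (-1.5794 to 0.2085), Vars2 (-0.1564 to 0.0992), Aars2 (-0.4095 to 0.5102), Nars2 (-0.0304 to 0.2928) and Rars2 (-0.4654 to 1.0623). The cause of these differences was not tested.

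The replicate numbers were shared by the groups in the labels. Deviations from the group mean in same-numbered libraries were not correlated over genes (-0.008). With 2 libraries a group, this value cannot show whether same-numbered libraries came from one preparation. A fit with the replicate block called 22 members higher, with Kars added (limma adjusted p = 0.0468), and 1684 genes higher and 1532 lower. Without 1 library, 1128 to 1527 genes were higher and 1218 to 1334 lower. With 2 libraries a group, changes under about the spread of the replicates could not be called, and an absent call does not show that a level stayed the same. Levels are FPKM without counts, so the depth behind a low mitochondrial value is unknown.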
